A study of Rattus norvegicus with 16 samples.

Results

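The genes described here encode the proteins that display peptides to T cells and the proteins that interferons induce, and their messenger RNA was measured in rat glomeruli, the filtering units of the kidney. They were chosen by symbol. The rule took every gene whose symbol begins with RT1-, Ifit, Oas or Tapbp, the numbered Ifi, Isg, Gbp and Irf genes, and single genes such as Cd74, B2m, Tap1, Tap2, Psmb8, Psmb9, Psmb10, Stat2, Mx1 and Mx2. It found 72 of the 13222 genes in the deposited table. By role these are 17 class I genes, 8 class II genes with Cd74 counted among them, 8 genes of peptide loading, 11 Irf and Stat factors, 15 Ifit, Ifitm and Ifi genes and 13 Isg, Mx, Oas and Gbp genes. The rule reads symbols only, so it also takes Isg20l2, an exonuclease of ribosomal RNA processing.

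The animals were 16 male Wistar rats of about 175 g, with 4 in each group. Control rats were labelled healthy. The other groups had an intravenous injection of puromycin aminonucleoside (PAN), a toxin that injures podocytes, and were labelled PAN, PAN with pioglitazone, or PAN with GQ-16. Pioglitazone is an insulin-sensitising drug, and either compound or a sham vehicle was given by gavage each day until glomeruli were sieved on day 11. The labels name no dose, no ages and no pairing of rats, and do not say whether the controls received the vehicle, so a treated group differs from control in every step the controls lacked. Each library is labelled as a separate rat, and nothing says whether rats shared a litter or a cage.

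MHC class I molecules are made in nearly every cell. They carry peptides that proteasomes cut from cytosolic proteins, that the transporter Tap1 and Tap2 moves into the endoplasmic reticulum and that tapasin helps to load, and they need the light chain B2m to reach the surface. Class II molecules are made mainly by macrophages, dendritic cells and B cells, and by some other cells under interferon gamma. Their invariant chain Cd74 keeps the groove closed until the DM molecule exchanges it for a peptide. Interferons of type I act through Stat2 and Irf9 among other factors, and Irf1 carries part of the interferon gamma response. The Ifit, Ifitm, Isg, Mx, Oas and Gbp genes are among the antiviral genes that these factors switch on.

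The stretches below show the DNA letters just before the start of genes from both arms of this system, because the interferon genes and the class II genes are read through different short motifs. Sequences are RefSeq promoters of assembly GRCr8, printed 5′ to 3′ along the gene's own strand, each with the 130 bases that end at the base before the annotated start. Capitals mark the motif, which is the interferon-stimulated response element (ISRE, searched as GAAA, any 2 bases and GAAA again, or as TTTC, any 2 bases and TTTC when read on the other strand) in these genes.
Irf7: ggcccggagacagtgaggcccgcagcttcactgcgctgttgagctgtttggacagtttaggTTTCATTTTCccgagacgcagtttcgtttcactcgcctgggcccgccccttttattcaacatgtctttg
Ifit3: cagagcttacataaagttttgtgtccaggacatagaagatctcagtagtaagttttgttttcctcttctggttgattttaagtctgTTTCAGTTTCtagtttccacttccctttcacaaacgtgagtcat
Oas1a: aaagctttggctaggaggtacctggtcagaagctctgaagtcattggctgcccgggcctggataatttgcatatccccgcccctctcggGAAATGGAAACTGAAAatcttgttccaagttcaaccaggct
Ifitm2: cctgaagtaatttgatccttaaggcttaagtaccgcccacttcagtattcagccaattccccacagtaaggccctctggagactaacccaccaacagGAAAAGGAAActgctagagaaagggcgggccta
Ifitm3: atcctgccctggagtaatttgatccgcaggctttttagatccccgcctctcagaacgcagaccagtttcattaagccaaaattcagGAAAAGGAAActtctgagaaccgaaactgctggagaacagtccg
Tap1: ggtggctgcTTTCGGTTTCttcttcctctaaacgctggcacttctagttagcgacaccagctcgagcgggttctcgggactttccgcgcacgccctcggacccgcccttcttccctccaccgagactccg
They lie at chr1:205800024-205800153 (minus strand) for Irf7, chr1:241527196-241527325 (plus) for Ifit3, chr12:41330336-41330465 (plus) for Oas1a, chr1:205482349-205482478 (minus) for Ifitm2, chr1:205541759-205541888 (minus) for Ifitm3 and chr20:4668544-4668673 (minus) for Tap1. In Oas1a, 2 matches overlap and are capitalised as 1 run.

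In the class II genes the capitals mark the Y box (CTGATTGG, or CCAATCAG when read on the other strand). NF-Y binds this site beside the factors that recruit the class II transactivator Ciita.
RT1-Da: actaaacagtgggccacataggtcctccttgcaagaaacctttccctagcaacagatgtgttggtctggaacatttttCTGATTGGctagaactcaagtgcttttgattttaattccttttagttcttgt
RT1-Db1: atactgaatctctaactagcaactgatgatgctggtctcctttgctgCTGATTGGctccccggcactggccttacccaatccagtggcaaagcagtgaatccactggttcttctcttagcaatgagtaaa
RT1-Ba: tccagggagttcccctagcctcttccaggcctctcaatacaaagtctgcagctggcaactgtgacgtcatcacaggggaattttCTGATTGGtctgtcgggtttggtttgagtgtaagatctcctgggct
RT1-Bb: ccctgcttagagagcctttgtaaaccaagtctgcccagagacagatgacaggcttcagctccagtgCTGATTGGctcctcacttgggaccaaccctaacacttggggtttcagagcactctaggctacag
They lie on chromosome 20, at chr20:4515285-4515414 (plus strand) for RT1-Da, chr20:4560163-4560292 (minus) for RT1-Db1, chr20:4576927-4577056 (plus) for RT1-Ba and chr20:4604119-4604248 (minus) for RT1-Bb.

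Promoter windows of 300 bases, from 250 before the start to 50 after it, were found for 60 of the 72 members by symbol. The ISRE letters occurred on either strand in 22 of those 60, a member counting once if any of its windows held them, against 4.12% of all 27457 symbols counted in the same way and 3.92% of all 33469 windows of the same length. By role they occurred in 6 of 8 genes of peptide loading, 7 of 11 Ifit, Ifitm and Ifi genes, 6 of 10 Isg, Mx, Oas and Gbp genes, 2 of 16 class I genes, 1 of 8 Irf and Stat factors and 0 of 7 class II genes. The Y box occurred in 13 of 60, against 3.75% of all symbols and 3.5% of all windows, and was seen in 4 of 7 class II genes and 6 of 16 class I genes. One member, RT1-S3, held both, and the matches did not overlap. A match is a description of these letters and not evidence that a protein binds there.

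Library totals ran from 13351137 to 21977663 reads in the listed genes, and levels are given as CPM, counts scaled to a common library total. All 72 members were above the smallest level taken as detectable, 3 reads or 0.14 to 0.22 CPM, since the lowest member count in any library was 6 reads. Ifit1 came close to that level, with 6 to 9 reads in control rat 1, PAN rat 3 and GQ-16 rats 1 and 3. The mean over the 4 group means reached 10 CPM for 62 members and fell below it for 10. Podocyte markers were present in every rat, the lowest of the 15 at 4.48 CPM, as were the 14 tubule markers, the lowest at 9.12 CPM, although some of each list differed between PAN and control rats, as given with the leukocyte markers. CPM does not correct for transcript length, so levels are compared between rats and not between genes. Class I genes are near-identical copies that differ in number between rat haplotypes, and Wistar is an outbred stock, so the split of reads among them is uncertain. The same holds for the Ifitm and Oas1 copies.

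The first question was whether glomeruli of PAN rats held more of these transcripts than glomeruli of control rats. Of the 72 members, 7 passed the test and all were higher with PAN: the class II genes RT1-DMa, RT1-DMb and RT1-Da, the class I gene RT1-M3-1, and Ifitm1, Ifitm2 and Ifitm3. Over all genes, 22.3% passed, and 21.7% passed as higher, so the share of members called, 7 of 72, was below the background. The test was limma on log2(CPM + 1), with Benjamini-Hochberg adjustment over 13222 genes and a threshold of 0.05. These calls depended on how libraries were scaled. As deposited, the median gene stood 0.28 higher in PAN on the log2 scale, and 65 of 72 members lay above 0, against 83.3% of all genes. When libraries were rescaled by median ratios so that the median gene moved by -0.003, 48 members lay above 0, against 49.5% of all genes. Under that scaling 0 of 72 members passed, against 8.63% of all genes, and limma gave 3 higher and 1 lower at an unadjusted p under 0.05, against 15.9% of all genes higher and 10.7% lower. As deposited, 20 members reached that level, all higher, against 40.7% of all genes higher. Mitochondrial genes took 26.3% ± 11.8 (SD, n = 4) of the reads in control rats and 9.24% ± 2.20 in PAN rats (exact permutation p = 0.0286, two-sided, the smallest that 70 assignments allow, and 0.172 after adjustment over 6 comparisons). With totals that leave out mitochondrial genes, 0 of 72 members passed, against 8.22% of all genes. The titles also carry library numbers whose meaning the labels do not give. PAN rats 1, 2 and 3 have the numbers 25, 31 and 32 and PAN rat 4 has 6, while the controls have 7 to 10, so PAN and a number of 25 or above can hardly be told apart. With such a number as a covariate, 0 of 72 members passed, against 2.97% of all genes.

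**Figure D1:**
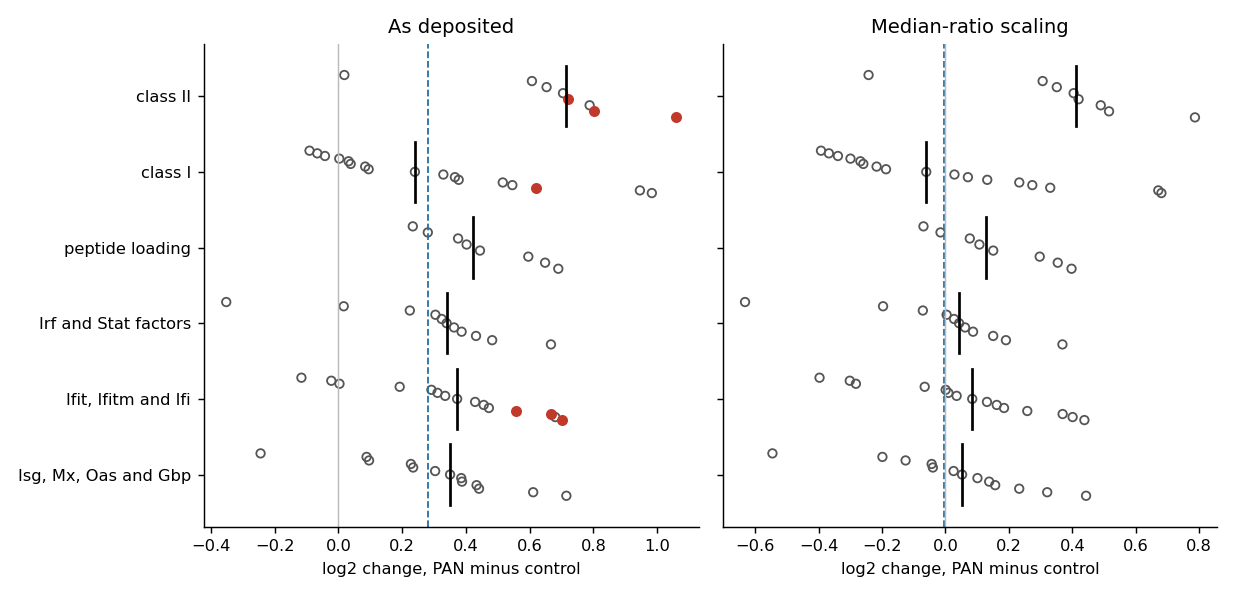
Log2 change between PAN and control rats for each of the 72 members, on the horizontal axis, by role, with values as deposited on the left and after median-ratio scaling on the right. Filled points passed limma's adjusted threshold, black bars are the role's median and the dashed line is the median of all genes. The class II bar lies at 0.71 on the left and 0.41 on the right, to the right of the all-gene line in both panels.

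Class II genes had the largest median change of the 6 roles. Of the 8, 3 were called, against 21.7% of all genes called higher. All 8 lay above 0, against 83.3% of all genes, with a median of 0.71, and 7 of 8 did after median-ratio scaling, with a median of 0.41. RT1-DMa and RT1-DMb encode the DM heterodimer, which takes the invariant chain's remnant out of the class II groove. RT1-DMa stood at 8.81, 5.14, 7.81 and 8.45 CPM in the 4 control rats and 30.004, 15.5, 14.04 and 11.3 CPM in the 4 PAN rats. It stood at 13.9, 13.5, 10.7 and 14.6 CPM in pioglitazone rats and 9.05, 18.3, 13.7 and 8.41 CPM in GQ-16 rats. Every PAN rat lay above every control rat, and PAN rat 1 lay far above the rest. RT1-DMa rose by 1.06 in log2 units with PAN (SE 0.27), with a limma adjusted p = 0.0155. After median-ratio scaling the difference was 0.79 (limma adjusted p = 0.0875). For RT1-DMb the control rats held 12.8, 11.9, 10.2 and 14.5 CPM and the PAN rats 43.5, 23.5, 15.6 and 14.6 CPM. The groups again did not overlap, although PAN rat 4 and control rat 4 were almost level. The pioglitazone rats held 17.5, 16.6, 19.9 and 21.9 CPM and the GQ-16 rats 12.99, 15.9, 15.5 and 10.5 CPM. RT1-DMb differed by 0.80 between PAN and control (SE 0.25, limma adjusted p = 0.0359). After median-ratio scaling this was 0.52 (limma adjusted p = 0.199).

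RT1-Da encodes the alpha chain of a classical class II molecule that presents peptides to helper T cells. Its levels were 137, 104, 94.2 and 149 CPM in control rats and 329, 217, 144 and 145 CPM in PAN rats, where rats 3 and 4 fell below control rat 4. Rats given pioglitazone had 195, 168, 148 and 214 CPM and those given GQ-16 had 122, 176, 159.6 and 106 CPM. RT1-Da rose by 0.72 with PAN (SE 0.25, limma adjusted p = 0.0476), the largest adjusted p of the 7 calls. After median-ratio scaling the difference was 0.42 (limma adjusted p = 0.271). RT1-Ba, the alpha chain of the other classical molecule, did not pass. It had 21.98, 50.9, 50.5 and 78.8 CPM in control rats and 153, 66.5, 57.3 and 70.8 CPM in PAN rats, a difference of 0.79 (SE 0.36, limma adjusted p = 0.109) between overlapping groups. Pioglitazone rats ranged from 65.3 to 110.4 CPM and GQ-16 rats from 36.1 to 81.2 CPM. The beta chains RT1-Db1 and RT1-Bb, added after their values were seen, differed by 0.70 and 0.61 (limma adjusted p = 0.105 and 0.151).

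Cd74, the invariant chain, had 467, 272, 247 and 479 CPM in control rats and 828, 579.7, 431 and 446 CPM in PAN rats. It had 453, 422, 487 and 528 CPM in pioglitazone rats and 359, 440.0, 521 and 258 CPM in GQ-16 rats. Control rats 1 and 4 overlapped the PAN rats, and PAN rat 1 was again the highest of the 16. The difference of 0.65 (SE 0.26) missed the threshold (limma adjusted p = 0.0783). RT1-DOb, the beta chain of DO, an inhibitor of DM made mostly by B cells, had the smallest difference of the class II genes in PAN, 0.02 (95% interval -0.46 to 0.50).

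**Figure D2:**
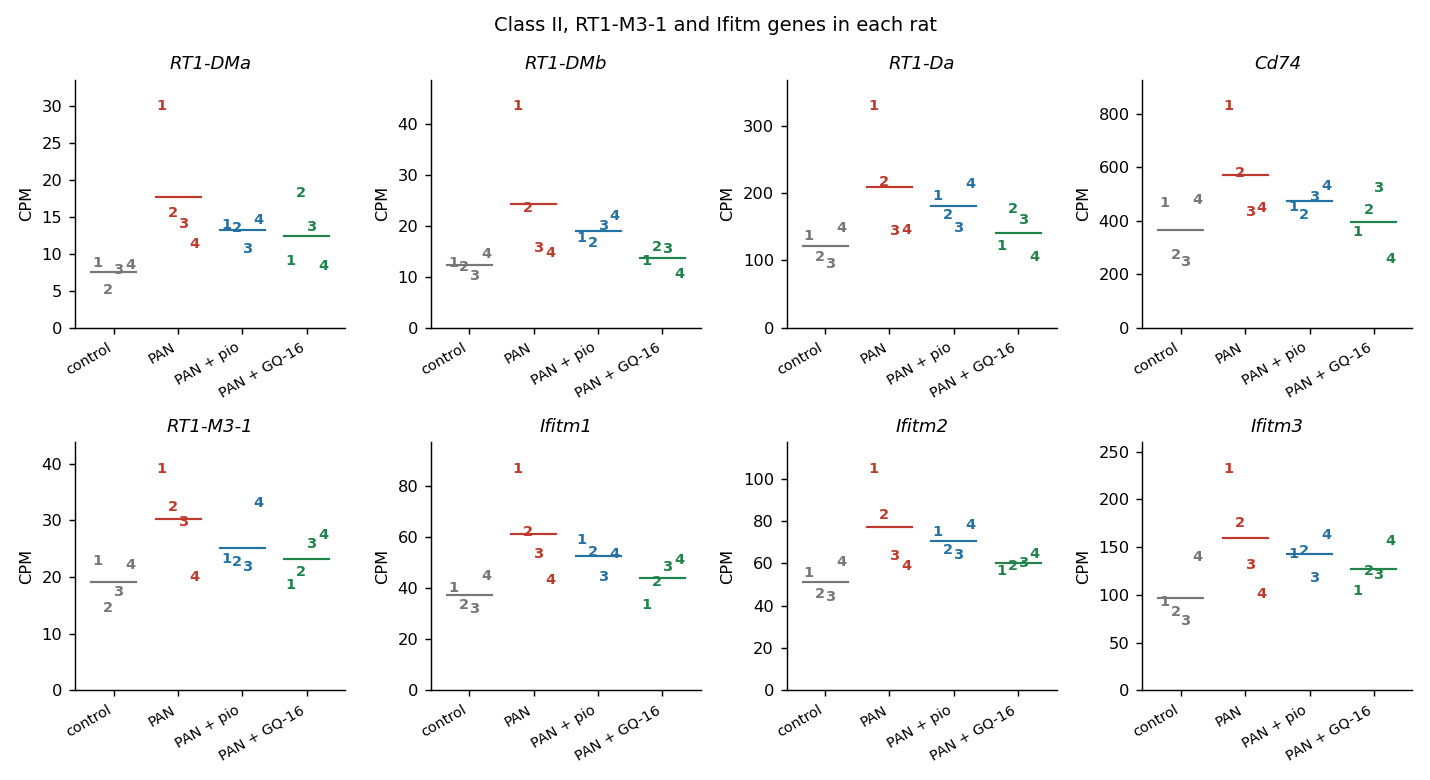
CPM (vertical axis, linear from 0) of 7 members called between PAN and control and of Cd74 in each of the 16 rats, with groups on the horizontal axis. Each numeral is 1 rat, the number being its replicate, and bars are group means. PAN rat 1 is the highest point in all 8 panels.

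Markers of leukocytes moved with the class II genes. The summed level of 27 leukocyte markers ran from 467 to 674 CPM in control rats, 626 to 1849 CPM in PAN rats, 520 to 970 CPM in pioglitazone rats and 513 to 743 CPM in GQ-16 rats. PAN rat 1 held the highest value, and it also held the highest summed level of the 8 class II genes, 1977 CPM, against 615 to 1031 CPM in control rats and 869 to 1224 CPM in the other PAN rats. Marker counts are to be read against 21.7% of all genes called higher and 0.522% called lower as deposited, and 7.12% and 1.51% after median-ratio scaling. As deposited, 13 of the 27 markers were higher in PAN than in control and none was lower, among them the macrophage genes Mrc1 (log2 1.62, limma adjusted p = 0.00486), C1qa (1.44, 0.0188) and Cd68 (1.01, 0.0274). Under median-ratio scaling Mrc1 was the 1 marker called higher and 2 were lower, among them the B cell gene Cd79a. No marker was at 0 in any rat, the lowest standing at 0.956 CPM. With the rats' leukocyte level as a covariate, 0 of the 72 members passed between PAN and control, against 2.61% of all genes, and with median-ratio scaling as well 0 passed, against 7.32%. Some markers of other cell types were called too. Of 11 mesangial and smooth muscle markers 9 were higher in PAN as deposited (median log2 1.71) and 8 after median-ratio scaling, and their summed level ran from 328 to 879 CPM in control rats and 1742 to 2865 CPM in PAN rats. Of 15 podocyte markers 5 were higher (median 1.52), or 2 after scaling, with sums of 3178 to 11952 CPM in control rats and 10484 to 14890 CPM in PAN rats. Of 14 endothelial markers 2 were higher, below the background share, or 1 after scaling, and their median was -0.10, or -0.40 after scaling. Of 14 tubule markers 3 were lower, Umod, Slc12a3 and Calb1, or 2 after scaling, with sums of 5177 to 9111 CPM in control rats and 3192 to 9948 CPM in PAN rats. The part of these cell types in the members' differences was not tested. More leukocytes in a sample and more RNA per cell cannot be told apart in bulk tissue.

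Class I genes had the lowest median of the 6 roles, 0.24 as deposited, against 0.28 for all genes, and -0.06 after median-ratio scaling, against -0.003. Of the 17, 1 was called, against 21.7% of all genes called higher. That gene, RT1-M3-1, is a nonclassical class I gene. Its levels were 22.7, 14.5, 17.3 and 22.1 CPM in control rats, 39.1, 32.4, 29.7 and 20.1 CPM in PAN rats, 23.2, 22.6, 21.8 and 33.0 CPM in pioglitazone rats and 18.5, 20.9, 25.8 and 27.3 CPM in GQ-16 rats. PAN rat 4 lay inside the control range and the other 3 lay above it. The difference was 0.62 (SE 0.20, limma adjusted p = 0.0405). After median-ratio scaling this was 0.33 (limma adjusted p = 0.183). RT1-CE10 had the lowest change of the class I genes, -0.09 (SE 0.60), and RT1-A1 the highest, 0.98 (SE 0.77, limma adjusted p = 0.326), with rats spread too widely for a call. RT1-M6-1, named after its values were seen, was the class I gene whose PAN rats, at 7.97 to 13.9 CPM, all lay above the control rats, at 6.17 to 7.73 CPM. With RT1-DMa and RT1-DMb it made 3 members of 72 without overlap, against 22.4% of all genes.

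None of the 8 genes of peptide loading was called, against 21.7% of all genes called higher. All 8 lay above 0, against 83.3% of all genes, with a median of 0.42, or 0.13 after median-ratio scaling. B2m, the light chain of every class I molecule, had 1004, 839.9, 844 and 1353 CPM in control rats and 1229, 1268, 1106 and 1067 CPM in PAN rats. Its pioglitazone rats had 950.4, 1075, 931 and 1285 CPM and its GQ-16 rats 928, 1017, 829 and 973 CPM. Control rat 4 was the highest of the 16, and B2m differed in PAN by 0.23 (95% interval -0.14 to 0.60), or -0.07 under median-ratio scaling. Tap1, a subunit of the peptide transporter, showed the same rat on top. Its levels were 60.1, 56.9, 49.1 and 114 CPM in control rats, 103, 101, 83.3 and 63.2 CPM with PAN, 55.1, 75.2, 57.2 and 103 CPM in pioglitazone rats and 58.5, 69.1, 56.8 and 60.1 CPM in GQ-16 rats. Tap1 differed by 0.38 (SE 0.24, limma adjusted p = 0.241).

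Psmb8 and Psmb9 are catalytic subunits of the immunoproteasome, the form of the proteasome that interferon gamma induces. Psmb8 had 28.8, 29.2, 28.1 and 60.0 CPM in control rats, where rat 4 was about level with PAN rat 1, and 64.7, 51.7, 44.9 and 29.8 CPM in PAN rats. Its drug groups had 37.1, 46.9, 32.9 and 50.8 CPM in pioglitazone rats and 32.5, 52.2, 24.8 and 33.5 CPM in GQ-16 rats. Psmb9 had 28.1, 23.8, 23.5 and 51.9 CPM in control rats and 55.4, 51.2, 37.1 and 27.6 CPM in PAN rats, with control rat 4 and PAN rats 1 and 2 high. Pioglitazone rats held 30.3, 39.4, 33.0 and 49.2 CPM and GQ-16 rats 28.5, 39.1, 27.5 and 31.6 CPM. The differences with PAN were 0.40 for Psmb8 and 0.44 for Psmb9 (limma adjusted p = 0.265 and 0.185). Tapbpl, which edits class I peptides, had the largest difference of this role, 0.69 (SE 0.28, limma adjusted p = 0.0777).

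Among the 11 Irf and Stat factors 0 were called, against 21.7% of all genes called higher, and 10 lay above 0, against 83.3%. Irf1, a factor that carries the interferon gamma signal to class I and loading genes, came nearest to a call. It had 58.2, 45.9, 42.0 and 82.7 CPM in control rats and 117, 94.0, 96.7 and 56.8 CPM in PAN rats, a difference of 0.67 (SE 0.25, limma adjusted p = 0.0624). Pioglitazone rats had 75.9, 76.8, 51.6 and 108 CPM and GQ-16 rats 61.9, 68.4, 71.2 and 86.4 CPM. Control rats 1 and 4 lay above PAN rat 4. Irf8, a factor of the myeloid lineage, had 19.5, 22.4, 19.0 and 20.6 CPM in control rats and 53.5, 30.4, 23.2 and 18.1 CPM in PAN rats. Only PAN rat 4 lay below the control range, and rat 1 was far above it. Irf8 had 21.8, 18.2, 16.1 and 23.0 CPM in pioglitazone rats and 18.6, 20.3, 20.01 and 12.9 CPM in GQ-16 rats. Its difference in PAN was 0.48 (limma adjusted p = 0.141).

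Of the 15 Ifit, Ifitm and Ifi genes 3 were called, against 21.7% of all genes called higher, and 0 were after median-ratio scaling, against 8.63% called in either direction. The calls were the 3 Ifitm genes whose products block viruses at cell membranes. Ifitm1 had 39.98, 33.4, 31.9 and 44.7 CPM in control rats and 86.8, 62.2, 53.5 and 43.3 CPM in PAN rats. The highest control rat lay above the lowest PAN rat, and the other PAN rats lay above all controls. Ifitm1 had 59.0, 54.2, 44.2 and 53.5 CPM in pioglitazone rats and 33.6, 42.7, 48.2 and 51.2 CPM in GQ-16 rats. It rose by 0.67 with PAN (SE 0.19, limma adjusted p = 0.0247). After median-ratio scaling this was 0.37 (limma adjusted p = 0.178). Ifitm2 had 55.4, 45.5, 44.2 and 60.5 CPM in control rats, 105, 82.9, 63.5 and 58.6 CPM in PAN rats, 74.7, 66.4, 64.1 and 78.0 CPM in pioglitazone rats and 56.6, 58.8, 60.2 and 64.4 CPM in GQ-16 rats. Again 1 control rat overlapped 1 PAN rat, and Ifitm2 rose by 0.56 (SE 0.16, limma adjusted p = 0.0257). After median-ratio scaling this was 0.26 (limma adjusted p = 0.23). Ifitm3 had 92.1, 81.8, 72.3 and 139.8 CPM in control rats and 232, 176, 132 and 101 CPM in PAN rats. It had 143, 146, 118 and 162 CPM in pioglitazone rats and 104, 125, 121 and 156 CPM in GQ-16 rats. Control rat 4 exceeded PAN rats 3 and 4, and Ifitm3 rose by 0.70 (SE 0.24, limma adjusted p = 0.0443). After median-ratio scaling this was 0.40 (limma adjusted p = 0.231). Ifitm10, another gene of the family, had the lowest change of the role at -0.12 (SE 0.25).

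None of the 13 Isg, Mx, Oas and Gbp genes was called, against 21.7% of all genes called higher. Their median was 0.35, against 0.28 for all genes, or 0.05 after median-ratio scaling, against -0.003. Their changes ran from -0.24 for Mx2 to 0.72 for Oas1a, an enzyme that senses double-stranded RNA. Control rats were spread widely in both genes followed here. Isg15, a ubiquitin-like protein, had 14.3, 18.9, 9.39 and 45.7 CPM in control rats and 23.0, 39.1, 22.6 and 18.0 CPM in PAN rats. It had 12.4, 27.5, 21.0 and 32.4 CPM in pioglitazone rats and 21.5, 16.4, 14.4 and 17.6 CPM in GQ-16 rats. Control rat 4 was the highest of the 16 and control rat 3 the lowest. Mx1, an antiviral GTPase, had 19.6, 19.7, 12.4 and 65.4 CPM in control rats and 47.0, 57.1, 26.2 and 26.2 CPM in PAN rats. It had 13.8, 33.2, 25.3 and 42.4 CPM in pioglitazone rats and 19.5, 13.6, 17.7 and 18.3 CPM in GQ-16 rats. Control rat 4 again exceeded every PAN rat, and the other controls lay below them. Differences with PAN were 0.39 for Isg15 (SE 0.38) and 0.61 for Mx1 (SE 0.42), with limma adjusted p of 0.429 and 0.264.

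Ifit3, which belongs to the complex that binds foreign RNA, was also highest in control rat 4 and lowest in control rat 3. It had 13.3, 20.8, 9.77 and 52.9 CPM in control rats, 29.4, 37.4, 20.9 and 18.8 CPM with PAN, 13.5, 23.4, 21.8 and 34.7 CPM in pioglitazone rats and 18.6, 16.7, 11.47 and 21.2 CPM in GQ-16 rats. Gbp2, a GTPase induced by interferon gamma, had 51.9, 46.5, 45.6 and 98.2 CPM in control rats and 101, 93.8, 69.1 and 44.2 CPM in PAN rats. It had 61.9, 65.7, 49.8 and 88.2 CPM in pioglitazone rats and 45.1, 57.6, 49.7 and 46.7 CPM in GQ-16 rats. In both genes control rat 4 lay far above the other controls. Ifit3 differed by 0.37 and Gbp2 by 0.35 between PAN and control (limma adjusted p = 0.475 and 0.31). Irf7, the amplifier of type I interferon production, had 39.3, 60.1, 23.3 and 146 CPM in control rats and 76.5, 113, 49.2 and 47.8 CPM in PAN rats. It had 17.2, 75.6, 50.1 and 90.1 CPM in pioglitazone rats and 41.8, 32.8, 25.5 and 47.9 CPM in GQ-16 rats. Its difference of 0.32 in PAN had an SE of 0.52, larger than the difference.

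Members varied more between rats of one group than most genes did. The SD of log2(CPM + 1) within groups had a median of 0.41 over the members and 0.24 over all genes, and 63 of the 72 members lay above the latter, including all 17 class I and all 8 class II genes. Control rat 4 was the highest of the 16 rats in 25 members, against 2.54% of all genes, and in 31 members under median-ratio scaling. It was the highest control in 59 of 72 members (81.9%), against 36.8% of all genes. By role it topped all 16 rats in 8 of 13 Isg, Mx, Oas and Gbp genes and in 0 of 8 class II genes. PAN rat 1 showed the other order, with 7 of 8 class II genes and 2 of 13 Isg, Mx, Oas and Gbp genes at their highest. PAN rat 1 topped 31 members in all, against 26.8% of all genes, and 21 under median-ratio scaling, against 12.5%.

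Control rat 4 and PAN rat 1 both decided calls between PAN and control. Without control rat 4, 26 of 72 members passed limma's test, against 28.9% of all genes, among them 5 of 8 class II genes, 7 of 15 Ifit, Ifitm and Ifi genes, 5 of 11 Irf and Stat factors, 4 of 8 genes of peptide loading, 3 of 17 class I genes and 2 of 13 Isg, Mx, Oas and Gbp genes. Tap1 (0.241 with all rats) then had an adjusted p of 0.0367 and Mx1 of 0.0312. Under median-ratio scaling without that rat, 1 member passed, against 6.34% of all genes. Without PAN rat 1, 0 of 72 passed as deposited, against 7.93% of all genes, and 0 under median-ratio scaling, against 4.7%. Leaving out 1 of the other rats gave 14 calls without PAN rat 4, against 24.4% of all genes, and 11 without control rat 1, against 37.5%. It gave 5 without PAN rat 3, against 14.8%, 1 without PAN rat 2, against 9.96%, 1 without control rat 3, against 6.34%, and 0 without control rat 2, against 6.5%.

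**Figure D3:**
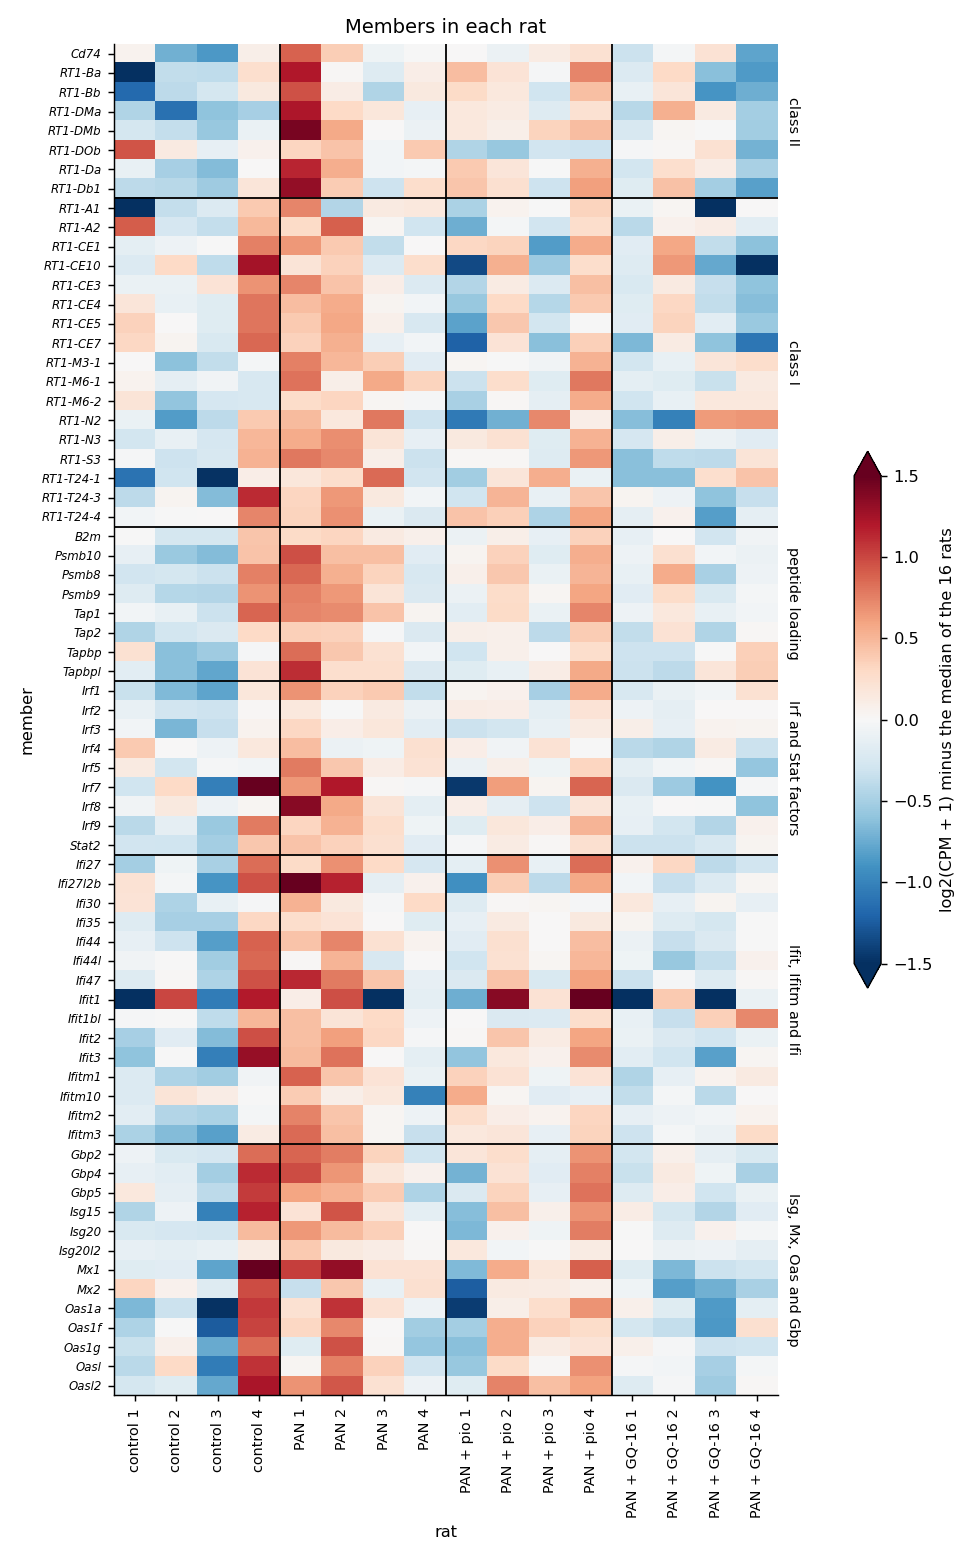
Level of 70 of the 72 members (rows, grouped by role) in each of the 16 rats (columns, grouped by treatment), as log2(CPM + 1) minus the member's median over the 16 rats. Colour runs from blue below the median to red above it and is cut at 1.5 in either direction. The column of control rat 4 is red in most interferon genes, and PAN rat 1 holds the highest value in 7 of 8 class II genes.

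Ifit1 and some class I genes differed widely between single rats of 1 group. Ifit1, which binds foreign RNA, was chosen for description after its values were seen. It had 6 reads in control rat 1, 9 in PAN rat 3, and 7 each in GQ-16 rats 1 and 3, that is 0.394 to 0.541 CPM, while the other 12 rats held 10.7 to 74.9 CPM. These 4 rats came from 3 groups. Its neighbours in function did not share the gap. Ifit2, also chosen after its values were seen, in the same 4 rats stood at 42.8, 75.7, 56.5 and 49.7 CPM, and Ifit3 at 13.3, 20.9, 18.6 and 11.47 CPM. The within-group SD of Ifit1, 2.12, was the highest of all genes in the table.

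RT1-A1, a classical class I gene, was low in 2 of the 16 rats. It stood at 104 CPM in control rat 1 and 75.6 CPM in GQ-16 rat 3, against 682 to 1589 CPM in the other 14. Both of these rats also lacked Ifit1 reads above the single digits, and the other 2 rats low in Ifit1 were not low in RT1-A1. RT1-CE10 was lowest in GQ-16 rat 4, at 25.3 CPM, and highest in control rat 4, at 490.4 CPM. RT1-N2, named after its values were seen, ran from 8.99 to 22.5 CPM in control rats, 13.4 to 30.1 CPM with PAN, 7.58 to 28.5 CPM in pioglitazone rats and 7.90 to 27.5 CPM in GQ-16 rats.

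**Figure D4:**
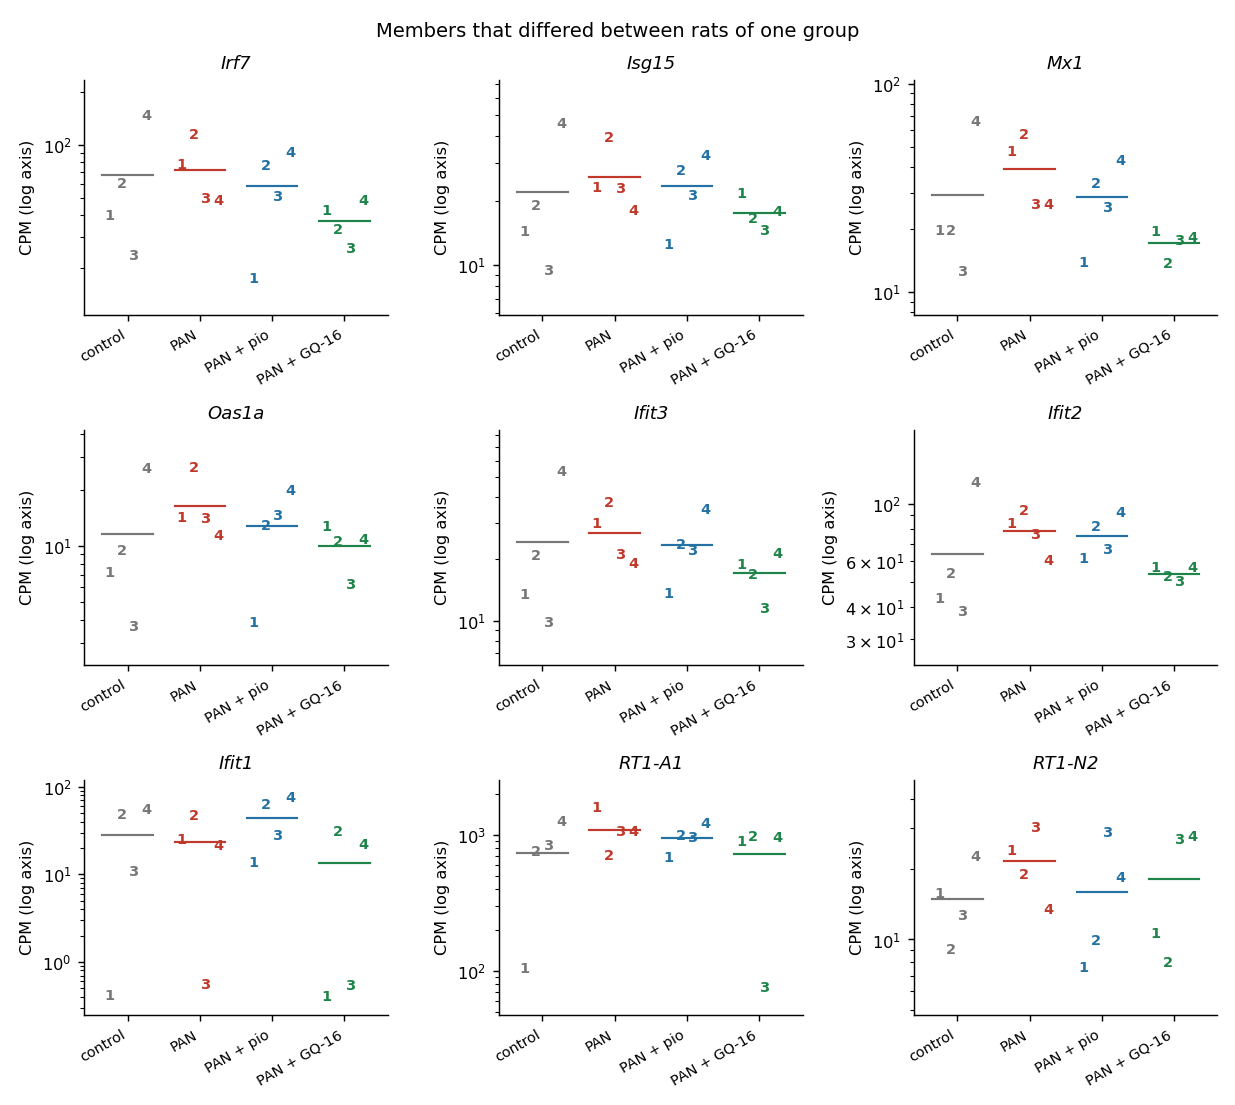
CPM on a log axis (vertical) of 9 members in each of the 16 rats, with groups on the horizontal axis. Each numeral is 1 rat and bars are group means. Control rat 4 is above the other controls in all 9 panels, Ifit1 is below 1 CPM in 4 rats of 3 groups, and RT1-A1 is low in control rat 1 and GQ-16 rat 3.

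With GQ-16 nearly all members stood below their level in PAN rats, but none passed the test. Compared with PAN, 0 of 72 passed limma's adjusted threshold, against 0.0151% of all genes. As deposited 16 had an unadjusted limma p under 0.05, all lower, against 7.93% of all genes that were lower at that level. Under median-ratio scaling 5 members were lower at that level, against 595 of 13222 genes. As deposited 71 of 72 members lay below 0, against 79.3% of all genes, and under median-ratio scaling 67 did, against 48.3%. The members' median was -0.44 as deposited, against -0.11 for all genes, and -0.31 after scaling, against 0.006. All 8 class II genes and all 17 class I genes lay below 0 as deposited. These differences rest on the same PAN rats as the comparison with control, so the 2 are not independent. PAN rats 1, 2 and 3 have library numbers of 25 or above, as does rat 4 of the GQ-16 and of the pioglitazone group. The other rats of both drug groups have numbers from 1 to 15. A difference between a drug group and PAN therefore cannot be fully told apart from these numbers.

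The members with the smallest p were Irf5, Irf8 and RT1-M6-1, and Irf5 is described with its values known. Irf5, a factor of Toll-like receptor signalling, had 20.9, 15.9, 12.7 and 13.9 CPM in PAN rats and 10.5, 11.4, 11.9 and 7.504 CPM in GQ-16 rats. The groups did not overlap. The difference was -0.57 (95% interval -0.92 to -0.21, limma adjusted p = 0.413). Mx1 differed by -1.06 (95% interval -1.95 to -0.18, limma adjusted p = 0.522), and all of its GQ-16 rats lay below all of its PAN rats. In all, 7 members had no overlap, all lower with GQ-16, against 3.47% of all genes. Among them were Irf5, Mx1, B2m, Ifit2, Ifi44 and Isg20l2, of which Ifi44 and Isg20l2 too are named after their values were seen. Ifit2, whose product binds viral RNA, is described with its values known and had 83.2, 93.9, 75.7 and 60.1 CPM in PAN rats and 56.5, 52.1, 49.7 and 56.5 CPM in GQ-16 rats. Irf8 differed by -0.67 and RT1-DMb by -0.66 (limma adjusted p = 0.459 and 0.498), and both had overlapping groups. Under median-ratio scaling these were -0.55 and -0.54. The summed leukocyte markers were also lower, 513 to 743 CPM with GQ-16 against 626 to 1849 CPM with PAN. With the rats' leukocyte level as a covariate the members' median between GQ-16 and PAN was -0.19, against -0.071 for all genes. In that fit 61 of 72 members lay below 0, a count given without the share of all genes.

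With pioglitazone the members' median difference from PAN was -0.18 as deposited, against -0.09 for all genes. After median-ratio scaling it was -0.099, against -0.0145. Compared with PAN, 0 of 72 passed, against 0.0% of all genes, and 2 had an unadjusted limma p under 0.05, against 3.74% of all genes. As deposited 63 of 72 lay below 0, against 72.6% of all genes, and 56 did under median-ratio scaling, against 53.5%. RT1-DOb, named after its values were seen, had 7.02, 7.61, 5.21 and 7.42 CPM in PAN rats and 3.71, 3.33, 4.26 and 4.19 CPM in pioglitazone rats. All 4 pioglitazone rats lay below all PAN rats and also below all control rats, at 11.3, 6.04, 4.90 and 5.72 CPM. It was the 1 member without overlap between pioglitazone and PAN, against 312 of 13222 genes lower and 53 higher. Between pioglitazone and control 1 member was lower without overlap and 3 were higher, against 140 and 1726 of all genes. RT1-DOb differed by -0.67 from PAN (95% interval -1.15 to -0.20, limma adjusted p = 0.916) and by -0.66 from control (adjusted p = 0.0933). The second was Irf8, at -0.53 (95% interval -1.05 to -0.02). For Cd74 the difference from PAN was -0.23 (95% interval -0.79 to 0.33) with pioglitazone and -0.53 (-1.09 to 0.03) with GQ-16.

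Pioglitazone and GQ-16 were set side by side, although the labels give no dose for either and a difference between them cannot be read at matched doses. Of the 72 members 0 passed, against 0.0% of all genes, and 0 had an unadjusted limma p under 0.05, against 5.94% of all genes. In GQ-16 rats 64 members lay below pioglitazone rats, against 55.2% of all genes. The widest gap was in Ifit1, at -2.58 (95% interval -5.33 to 0.18), where GQ-16 rats 1 and 3 are among the 4 rats below 1 CPM. Only RT1-DMb and Ifit2 had no overlap between the drug groups, 2 members of 72 against 1.94% of all genes lower and 0.204% higher. RT1-DMb differed by -0.45 (95% interval -0.98 to 0.09) and Ifit2 by -0.46 (95% interval -1.03 to 0.10), both lower with GQ-16.

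Against control rats neither drug group had a called member. With pioglitazone 0 of 72 passed, against 4.98% of all genes, and 10 had an unadjusted limma p under 0.05, against 28.5%. Of these 8 were higher, led by Ifitm2 (0.46, adjusted p = 0.0942) and RT1-DMa (0.74, adjusted p = 0.105) and 2 were lower, RT1-DOb among them. As deposited 17 members lay below 0, against 19.6% of all genes, and 39 did under median-ratio scaling, against 48.2%. With GQ-16 0 of 72 passed, against 0.151% of all genes, and 4 had an unadjusted limma p under 0.05, against 23.9%. Those were Mx2 (-0.82), RT1-CE7 (-0.80) and Irf4 (-0.38), lower, and RT1-DMa (0.60), higher, of which RT1-CE7 and Irf4 are named after their values were seen. As deposited 45 members lay below 0 with GQ-16, against 26.8% of all genes, and 60 did under median-ratio scaling, against 49.3%. The control means behind these counts include control rat 4, the highest control in 59 of 72 members, or 54 under median-ratio scaling. Counts of members below 0 without that rat are not given here.

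**Figure D5:**
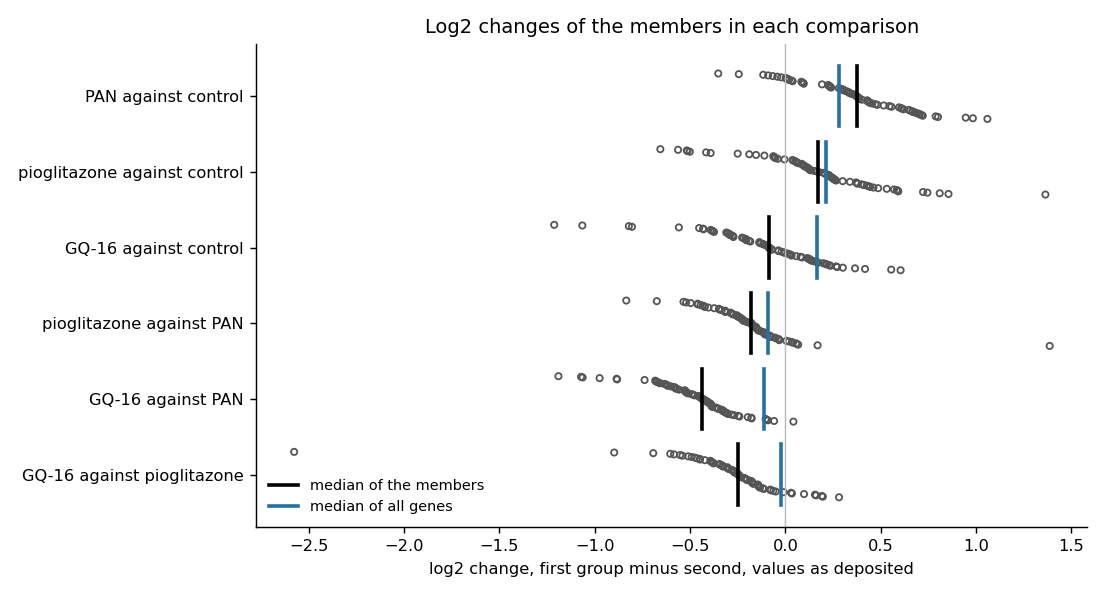
Log2 change of each of the 72 members (open points, horizontal axis) in the 6 comparisons (vertical axis), values as deposited. Black bars are the members' medians and blue bars the medians of all genes. In GQ-16 against PAN the black bar lies at -0.44 and the blue bar at -0.11, and the point farthest left is Ifit1 in GQ-16 against pioglitazone.

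Genes that act before and beside the members were followed through fixed lists, to be read against 21.7% of all genes called higher in PAN as deposited and 7.12% after median-ratio scaling. Of 15 interferon receptors, kinases and feedback genes, 3 were higher in PAN than in control as deposited and 2 under median-ratio scaling, none lower. Socs1, the feedback inhibitor that interferon signalling induces, had 5.06, 2.23, 2.56 and 5.22 CPM in control rats and 13.4, 20.9, 19.7 and 16.5 CPM in PAN rats, with no overlap. It rose by 2.01 (SE 0.35, limma adjusted p = 0.00178). Its mean was 14.7 ± 5.67 CPM in pioglitazone rats and 20.4 ± 11.2 CPM in GQ-16 rats (SD, n = 4), and Socs1 was called higher than control in both. Ifngr1, a chain of the interferon gamma receptor, rose from 61.4 ± 10.1 to 120.4 ± 46.1 CPM with PAN (SD, n = 4, log2 0.91, limma adjusted p = 0.00534), and its partner Ifngr2 differed by 0.56 (adjusted p = 0.0457).

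Of 32 other interferon-stimulated genes 6 were higher in PAN, against 21.7% of all genes, or 3 after median-ratio scaling, against 7.12%. The 3 with the smallest p were Tor3a (log2 1.43, limma adjusted p = 0.00793), Lgals3bp (1.08, 0.0129) and the T cell chemokine Cxcl11 (1.70, 0.0182). Of 14 nucleic acid sensors and adaptors 2 were higher, the kinase Ikbke (0.83, limma adjusted p = 0.00888) and the Toll-like receptor adaptor Myd88 (0.50, 0.03). Of 15 further genes of class I loading and transcription 2 were higher, Sec61a1 (0.79, limma adjusted p = 0.0106), a channel of the endoplasmic reticulum, and Psme2 (0.63, 0.0267), a proteasome activator. Of 7 genes of class II transcription and processing 1 was higher, the lysosomal protease Ctss (1.03, limma adjusted p = 0.0377). Of the 3 constitutive proteasome subunits that Psmb8, Psmb9 and Psmb10 replace, Psmb7 was higher (0.34, limma adjusted p = 0.042). Under median-ratio scaling Ikbke and Sec61a1 passed, and Myd88, Psme2, Ctss and Psmb7 did not. No gene of these 6 lists was called between either drug group and PAN.

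Cd74 was used to find genes with a like pattern over the 16 rats, members left out. The 5 with the highest Pearson correlation of log2(CPM + 1) were Prr5l (0.91, Spearman 0.81), Limd2 (0.90, 0.70), LOC108348139 (0.89, 0.78), Slfn13 (0.88, 0.72) and Ciita (0.88, 0.81), the last being the class II transactivator. Without PAN rat 1 and control rat 3, the 2 rats farthest from the median of Cd74, the Pearson values were 0.82, 0.82, 0.82, 0.77 and 0.81. The 16 rats share their treatment groups, and libraries rich in leukocyte markers are among them. Ciita had 16.9, 12.5, 9.77 and 14.8 CPM in control rats and 27.6, 21.1, 17.1 and 19.3 CPM in PAN rats, a difference of 0.63 (SE 0.23) that missed the threshold (limma adjusted p = 0.0619).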

How the data were processed

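RNA was measured in glomeruli of 16 rats, from stranded poly(A) libraries (200 ng of total RNA, 12 cycles of PCR, paired reads of 150 bp, per the labels' protocols). The authors deposited log2 CPM values for 13222 genes, and the submitters' processing notes name HISAT2, featureCounts of Subread, limma and build Rnor_6.0 without versions. The log2 values carry an offset of 0.5 read per count and 1 per library total. Whole reads came back for 100% of values once it was removed (tolerance 0.05 read). All listed genes have 2 CPM or more in 8 or more libraries, so low genes are not analysed here. Totals were 13351137 to 21977663 reads, and read counts carry no molecular identifiers.

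Comparisons used log2(CPM + 1) in limma 3.58.1 (R 4.3.3), a pseudocount that understates changes of low genes, in 1 fit with 4 group means and a variance trend, with two-sided p-values adjusted by Benjamini-Hochberg over 13222 genes. No 2 libraries were identical. The fit was tested on simulated data. Named members were those called, 14 fixed genes and the extremes of each role in PAN against control; others are marked as named after their values were seen, and some members and markers are counted but not reported here by name. The members and lists were chosen with earlier results of these data known. Alternatives covered scaling, pseudocount, filter, covariates and left-out rats. Motifs were searched in RefSeq promoters of GRCr8, a build other than that of the table.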

Additional observations from a re-analysis of the deposited data

Results flagged for a closer look

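Of the 32 members named by rule or described with their values by rat, each in 4 groups of 4 rats, 5 of 128 groups had 1 rat far from the other 3 by Dixon's test at the 95% level, where chance alone gives 5%, or about 6.4 groups. Psmb8 in control rat 4 stood at 60.0 CPM, 5.93 on the log2(CPM + 1) scale, above 28.1 to 29.2 CPM in the other controls. Gbp2 in the same rat stood at 98.2 CPM (6.63), above 45.6 to 51.9 CPM. RT1-A1 in GQ-16 rat 3 stood at 75.6 CPM (6.26), below 885 to 975 CPM. Mx2, an antiviral GTPase, in pioglitazone rat 1 stood at 65.5 CPM (6.06), below 165 to 171 CPM. RT1-M3-1 in pioglitazone rat 4 stood at 33.0 CPM (5.09), above 21.8 to 23.2 CPM.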

How the results depend on the processing

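No paired analysis was possible because the labels give no replicate numbers that pair rats across groups. Between PAN and control the 7 calls became 0 with median-ratio scaling, totals without mitochondrial genes, quantile normalization, voom on the recovered reads, the leukocyte covariate (alone or with median-ratio scaling), a covariate for libraries numbered 25 or above, or median-ratio scaling without PAN rat 1. They became 1 with only the 2 groups compared or with median-ratio scaling without control rat 4, and 0 to 26 with 1 rat left out. All genes called fell from 2943 to 1141 with median-ratio scaling, 1087 without mitochondrial genes, 1136 with quantile normalization, 1047 with voom, 1580 with only the 2 groups, 345 with the leukocyte covariate (968 with scaling) and 393 with the library-number covariate. Of the 7 called members RT1-DMa passed in 3 of 10 alternatives with all rats (highest adjusted p 0.209 in limma) and the other 6 in 2. In the drug groups against control 0 members were called in the main fit. With pioglitazone 1 was called under quantile normalization, with only the 2 groups, and without control rat 4. The leukocyte covariate with median-ratio scaling gave 1 with either drug. Shares of all genes called under these settings are not given here. These single calls are therefore not read as a result about the members. Comparisons of the drug groups with PAN and with each other gave 0 members under every alternative run.

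Over all members, those above 0 between PAN and control fell from 65 to 48 of 72 with median-ratio scaling. Of the members named by rule alone, log2 changes that changed sign are given here, and the cause was not tested. B2m was -0.069 with median-ratio scaling, -0.081 without mitochondrial genes, -0.083 with quantile normalization, -0.064 with voom and -0.069 with median-ratio scaling without PAN rat 1. The last gave -0.028 for Psmb8, -0.0084 for Irf7, -0.074 for Irf8 and -0.074 for Gbp2. The leukocyte covariate gave -0.067 for Psmb8, -0.072 for Irf8 and -0.18 for Gbp2. With scaling as well it gave -0.15 for B2m, -0.093 for Tap1, -0.16 for Psmb8, -0.055 for Psmb9, -0.038 for Irf7, -0.14 for Irf8, -0.032 for Ifit3 and -0.21 for Gbp2. The library-number covariate gave -0.26 for Irf7, -0.091 for Ifit3, -0.0057 for Gbp2 and 0.48 for RT1-CE10. With 1 rat left out Irf7 ran from -0.064 to 0.80, Ifitm10 from -0.28 to 0.19 and RT1-CE10 from -0.30 to 0.24, with 0.029 among the last. The alternatives that combine 2 changes, and the fit on libraries numbered 15 or lower, were chosen after seeing the data. Every member had at least 6 reads in each library.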
